A study of Rattus norvegicus with 22 samples.

Results

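Bile acid synthesis and its regulators were followed in rat liver through 10 genes, namely Cyp7a1, Cyp8b1, Cyp27a1, Cyp7b1, Akr1d1, Slc27a5, Baat, Slc10a1, Nr1h4 and Nr0b2. They were chosen by name: every non-control probe whose gene name, ignoring case, is one of these was taken, which gave 11 probes of the 30367 on the array and all 10 genes of the 26276 gene names. All 11 probes were among the 19434 that passed the detection filter and were tested. Nr1h4 had a pair of probes and the brighter one was used, with the other given as a check.

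Bile acids are made from cholesterol in hepatocytes. The classical pathway opens with 7-alpha-hydroxylation by Cyp7a1 and, through Cyp8b1, yields cholic acid, whereas the alternative pathway opens with side-chain hydroxylation by Cyp27a1 and continues with Cyp7b1. The acids are then joined to taurine or glycine, secreted into bile, taken back from portal blood, and sensed by the nuclear receptor FXR (Nr1h4), which induces the corepressor SHP (Nr0b2) and so lowers synthesis.

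The livers came from 22 male Sprague-Dawley rats, young adults when feeding began, 1 array per rat, and each rat was fed a semi-synthetic diet for 3 or 14 months. CD 3 (n = 5) and CD 14 (n = 6) were fed the control diet, which contained lard. BD 3 (n = 5) and BD 14 (n = 6) were fed the BASE-diet, in which 6% of salmon fat replaced most of the lard and rapeseed oil was raised. Also added were 8% of a hydrolysed linden flower extract, 8% of pumpkin puree and 1% of probiotic Lactobacillus and Bifidobacterium. The paper's diet table gives a lower share for the probiotic. Rat RNA carried Cy5 and a common reference of liver RNA from healthy 10-week rats outside the experiment carried Cy3 on all arrays, by the labels, with no dye swap. The question for each gene was whether the diet, at each time, or the time, on each diet, went with a different level. The unit throughout is the log2 ratio of the rat's signal to the reference, where 0 means equal signals, and a difference of 1 is 2-fold. In whole liver, fewer cells of a type and less RNA per cell cannot be told apart.

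Per array, between 52.4% and 93.6% of spots (median 69.7%) had a Cy5 signal well above background. CD 3 rat 4 was the dimmest array, and it stood at the lowest or highest end of its group for 8 of the 10 genes. The arrays with the most non-uniform spots were those of CD 3 rat 1 (4.44%) and CD 14 rat 1 (4.05%). CD 3 rat 1 also had the highest share of spots well above background, 93.6%. The arrays came from 5 slides, here called A to E, each with its own scan day. Both 3-month groups met only on slide A (1 CD 3 and 2 BD 3 arrays), both 14-month groups only on slide E (2 CD 14 and 6 BD 14 arrays), and the control groups only on slide C (1 array each). The CD 3 array on slide A was that of rat 1, so the values within slide A rest on it. All BD 14 arrays were on slide E, so the slide-blocked diet difference at 14 months is the slide E difference by construction. All 8 hepatocyte markers listed passed the detection filter. Their unadjusted p by limma was under 0.05 for 0 between the 3-month groups, against 7.11% of all probes. Between the 14-month groups it was so for 1, or 12.5%, against 4.6% of all probes. These counts do not measure hepatocyte content, and the mean log2 ratio of the markers lay between -1.27 and 0.48 within CD 3.

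The probes are 60 bases long. Those of Cyp8b1, Cyp27a1 and Akr1d1 start at bases 995, 1238 and 915 of their RefSeq transcripts, and their letters, which have at least 1 reading frame free of stop codons, are shown because they are what the array measured for 3 enzymes of the pathway. The coordinates are those of the array's own annotation to rn4, namely chr8:127019903-127019962 for Cyp8b1, chr9:74067772-74067831 for Cyp27a1 and chr4:65001378-65001437 for Akr1d1.
Cyp8b1 probe: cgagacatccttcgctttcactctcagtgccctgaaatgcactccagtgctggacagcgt
Cyp27a1 probe: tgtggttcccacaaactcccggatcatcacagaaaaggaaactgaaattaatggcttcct
Akr1d1 probe: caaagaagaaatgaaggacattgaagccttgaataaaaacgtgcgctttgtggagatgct

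RefSeq promoters (build GRCr8) were at hand for 6 of the 10 genes. The 250 bases before the start of Nr0b2, Baat, Slc27a5 and Slc10a1 are printed for their p-values. By the main probes, in the unblocked fit of all 4 groups, the first 3 had the lowest for diet and Slc10a1 the next lowest at 3 months. Capitals mark matches to 3 motifs, which do not overlap here and were searched on both strands. The half-site of many nuclear receptors was spelled AGGTCA. The E-box was spelled CACGTG. The TATA box was spelled TATAAA.
Nr0b2 (chr5:151062910-151063159, plus strand): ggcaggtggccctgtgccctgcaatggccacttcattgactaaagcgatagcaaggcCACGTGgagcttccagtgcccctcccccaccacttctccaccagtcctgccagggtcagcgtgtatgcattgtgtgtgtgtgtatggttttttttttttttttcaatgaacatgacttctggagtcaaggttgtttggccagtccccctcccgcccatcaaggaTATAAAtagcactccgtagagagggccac
Baat (chr5:68656138-68656387, minus strand): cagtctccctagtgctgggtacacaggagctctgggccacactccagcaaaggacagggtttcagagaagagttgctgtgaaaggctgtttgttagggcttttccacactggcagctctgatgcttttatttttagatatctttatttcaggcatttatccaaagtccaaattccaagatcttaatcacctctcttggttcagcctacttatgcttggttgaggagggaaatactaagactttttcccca
Slc27a5 (chr1:82699336-82699585, minus strand): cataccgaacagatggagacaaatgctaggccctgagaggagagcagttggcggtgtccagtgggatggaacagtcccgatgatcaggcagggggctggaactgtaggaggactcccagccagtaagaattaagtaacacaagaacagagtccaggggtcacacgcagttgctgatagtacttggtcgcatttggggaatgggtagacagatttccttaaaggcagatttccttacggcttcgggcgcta
Slc10a1 (chr6:106357945-106358194, minus strand): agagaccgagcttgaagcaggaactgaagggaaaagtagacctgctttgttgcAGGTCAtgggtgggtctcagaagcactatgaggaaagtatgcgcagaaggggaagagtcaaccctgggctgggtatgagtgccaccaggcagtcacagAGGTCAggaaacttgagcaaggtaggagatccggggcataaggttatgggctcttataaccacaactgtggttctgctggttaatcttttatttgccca
The Nr0b2 window held the E-box, with its first base at -193, and the TATA box at -29. The Slc10a1 window held the half-site at -197 and -99. No match to these letters lay in the windows of Baat and Slc27a5. Among all 33469 promoters of this length, 14.1% held the half-site, 5.59% the E-box and 12.9% the TATA box. A match is a description of the letters only.

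None of the 10 genes passed limma's test with Benjamini-Hochberg adjustment over all probes in any comparison. The share of all probes called at an adjusted p under 0.05 was 0% for BD 3 against CD 3, 0% for BD 14 against CD 14, 0.00515% for diet averaged over both times, 0% for CD 14 against CD 3, 0% for BD 14 against BD 3, 0.221% for time averaged over both diets, 0% for the interaction of diet and time and 0.0257% for any difference among the 4 groups. At an unadjusted p under 0.05 there were 2 genes between BD 3 and CD 3 (Baat and Slc27a5, both lower on the BASE-diet), 1 between BD 14 and CD 14 (Nr0b2, higher), 2 for diet averaged over both times (Slc27a5 lower, Nr0b2 higher) and 1 between CD 14 and CD 3 (Baat, lower at 14 months). The share of all probes at that level was 7.11%, 4.6%, 7.19% and 10.1% in these comparisons. No gene reached it for BD 14 against BD 3, time averaged over both diets, the interaction or any difference among the groups, where 7.44%, 13.6%, 4.8% and 10.5% of all probes did. With only 10 genes, counts of 0 to 2 can be set against those shares only coarsely, and no test of the counts was run. The lowest adjusted p of a gene was 0.42, for Baat between CD 14 and CD 3.

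**Figure D1:**
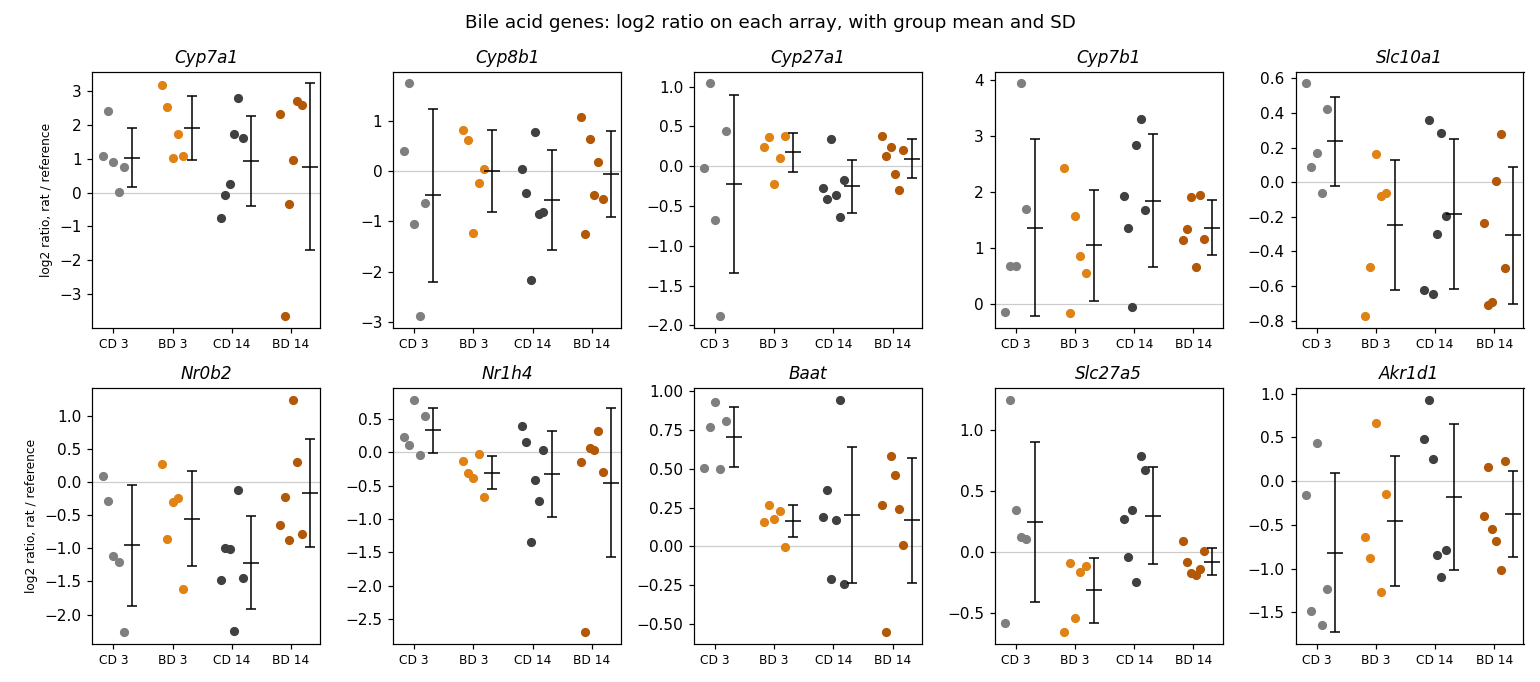
Each panel shows 1 gene, with the log2 ratio of rat to common reference on the y axis and the 4 groups on the x axis, each point 1 array and each bar the group mean with its SD (n = 5, 5, 6 and 6). CD 3 and BD 3 do not overlap for Baat, and the groups of all other genes overlap in that comparison. The y axes differ between panels.

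The classical pathway was represented by its rate-limiting enzyme Cyp7a1 and by the 12-alpha-hydroxylase Cyp8b1, and both spread widely between rats of 1 group. For Cyp7a1 the log2 ratios in CD 3 were 1.09, 2.39, 0.89, 0.01 and 0.76. The BD 3 rats were at 3.17, 2.51, 1.02, 1.71 and 1.07. By these ratios all 10 rats at 3 months lay above the reference, CD 3 rat 4 barely so, and the groups overlapped. In BD 3 rats 1 and 5 only 40% and 30% of the reference spots were well above background, so their ratios are uncertain. In CD 14 the lowest, median and highest values were -0.75, 0.93 and 2.78, and in BD 14 they were -3.64, 1.63 and 2.71. The difference BD 3 minus CD 3 was 0.87 with SE 0.93 (limma, 95% interval -1.05 to 2.80, adjusted p = 0.90). BD 14 minus CD 14 was -0.16 with SE 0.85 (limma, 95% interval -1.92 to 1.60, adjusted p = 0.99). The fit blocked on slide gave 1.95 at 3 months (limma, unadjusted p = 0.185) and -1.48 at 14 months (limma, unadjusted p = 0.224), the latter being the slide E difference. The interaction in that fit was -3.43 (limma, unadjusted p = 0.079). Both the -1.48 and the -3.43 include BD 14 rat 2, described below. Both unblocked intervals are wide and hold higher as well as lower levels on the BASE-diet. The value of -3.64 came from BD 14 rat 2, whose Cyp7a1 signal was 4.39 with none of its 10 spots well above background. Without that rat the unblocked 14-month difference was 0.72. Cyp7a1 was dim: its reference signal was well above background on 17 of 22 arrays and its rat signal on 21.

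Cyp8b1, which sets the share of cholic acid, had log2 ratios of 0.41, 1.75, -1.06, -2.89 and -0.62 in CD 3. BD 3 gave 0.83, 0.62, -1.24, -0.23 and 0.05. The control group reached both further up and further down than the BASE-diet group. The means in CD 14 and BD 14 were -0.58 ± 1.00 and -0.06 ± 0.86 (SD, n = 6 each). The differences were 0.49 with SE 0.67 at 3 months and 0.52 with SE 0.61 at 14 months (limma, adjusted p = 0.92 and 0.95). Without CD 3 rat 4 the 3-month difference was -0.11, and the blocked differences were 0.27 and -0.019. By the Cy5 signal alone, quantile-normalized, the differences were 1.33 at 3 months (limma, unadjusted p = 0.043) and -0.21 at 14 months, and the reference signal of Cyp8b1 itself lay between 775 and 18452 on the 22 arrays.

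In the alternative pathway, Cyp27a1, the mitochondrial sterol 27-hydroxylase, had means of -0.22 ± 1.12 in CD 3, 0.18 ± 0.25 in BD 3 (SD, n = 5 each), -0.25 ± 0.33 in CD 14 and 0.09 ± 0.25 in BD 14 (SD, n = 6 each). The diet differences were 0.40 with SE 0.36 and 0.35 with SE 0.33 (limma, adjusted p = 0.88 and 0.95), 0.067 and 0.59 when blocked on the slide, and 0.62 and -0.11 by the Cy5 signal alone. The lowest value, -1.88, was that of CD 3 rat 4, and without it the 3-month difference was -0.02. Cyp7b1, the oxysterol 7-alpha-hydroxylase, had means of 1.37 ± 1.58 in CD 3, 1.05 ± 0.99 in BD 3 (SD, n = 5 each), 1.84 ± 1.18 in CD 14 and 1.36 ± 0.49 in BD 14 (SD, n = 6 each). It was above the reference in all 6 BD 14 rats, and CD 3 rat 4 had the highest value, 3.94. Its diet differences were -0.32 with SE 0.65 and -0.48 with SE 0.60 (limma, adjusted p = 0.95 and 0.95). The first was 0.33 without CD 3 rat 4, 0.78 with the slide as a block and 1.28 within slide A. Within slide E, BD 14 lay between 0.67 and 1.95 and the CD 14 rats at 2.84 and 3.31, and the second difference was -1.71. The slide-blocked fit gave the same value by construction (limma, unadjusted p = 0.042, adjusted p = 0.62). By the Cy5 signal alone the 14-month difference was -0.036 (limma, unadjusted p = 0.960), while the reference signal was 0.62 higher on the BD 14 than on the CD 14 arrays (limma, unadjusted p = 0.051).

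Akr1d1, the 5-beta-reductase that gives bile acids their bent ring, had means of -0.82 ± 0.91 in CD 3, -0.46 ± 0.75 in BD 3 (SD, n = 5 each), -0.18 ± 0.84 in CD 14 and -0.37 ± 0.49 in BD 14 (SD, n = 6 each). The diet differences were 0.36 with SE 0.45 and -0.19 with SE 0.41 (limma, adjusted p = 0.92 and 0.97), smaller than the SD of each control group. With the slide as a block both turned, to -0.52 and 0.60.

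By the main probes and without blocking, the conjugating enzymes had the lowest p-values of the 10 genes between the 3-month groups in the fit of all 4 groups. Slc27a5, the bile acid-CoA ligase, activates bile acids, and Baat joins them to taurine or glycine. The Baat probe (chr5:66245796-66245855) had log2 ratios of 0.50, 0.77, 0.93, 0.50 and 0.81 in CD 3. The BD 3 values were 0.16, 0.27, 0.18, 0.23 and -0.00. Every BD 3 rat thus lay below every CD 3 rat, as for 0.756% of all probes in either direction. The difference was -0.54 with SE 0.22, a 1.45-fold lower level (limma, 95% interval -0.998 to -0.077, unadjusted p = 0.024, adjusted p = 0.62). Values from leaving out each array in turn lay between -0.59 and -0.48, the latter without CD 3 rat 3 (limma, unadjusted p = 0.057). A fit with slide as a block gave -0.56 with SE 0.34 and an unadjusted p of 0.119 by limma, and slide A alone gave -0.29. The reference signal of Baat was itself higher on the BD 3 than on the CD 3 arrays, by 0.24 on the log2 scale with SE 0.12, and by the Cy5 signal alone the Baat difference was -0.43. At 14 months the lowest, median and highest values were -0.24, 0.18 and 0.95 in CD 14 and -0.55, 0.25 and 0.59 in BD 14, with a difference of -0.03 and SE 0.20 (limma, adjusted p = 0.99). The slide-blocked fit, here the same as slide E alone, gave -0.39 for it (limma, unadjusted p = 0.187). Averaged over both times Baat was at -0.29 (limma, unadjusted p = 0.070), and at -0.47 when blocked on the slide (limma, unadjusted p = 0.047). The diet differences at both times were compared by the interaction term, 0.50 with SE 0.30 (limma, unadjusted p = 0.109, adjusted p = 1.00). Blocked on the slide it fell to 0.17 (limma, unadjusted p = 0.709), and the blocked differences at both times were closer to each other.

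Slc27a5 (chr1:72935145-72935204) had log2 ratios of -0.58, 1.25, 0.34, 0.12 and 0.10 in CD 3. In BD 3 they were -0.66, -0.09, -0.54, -0.16 and -0.11. All 5 BD 3 rats lay below the reference and 4 of the 5 CD 3 rats above it, with the groups overlapping through CD 3 rat 1. In CD 14 the lowest, median and highest values were -0.24, 0.31 and 0.79, and in BD 14 -0.18, -0.11 and 0.10. The difference was -0.56 with SE 0.26 at 3 months, 1.47-fold lower (limma, unadjusted p = 0.041, adjusted p = 0.68), and in a fit of both 3-month groups alone the unadjusted p was 0.106 by limma. It was -0.31 without CD 3 rat 2 (limma, unadjusted p = 0.181) and -0.77 without CD 3 rat 1. It was -0.38 with SE 0.24 at 14 months (limma, unadjusted p = 0.122, adjusted p = 0.95). Averaged over both times it was -0.47 with SE 0.17 (limma, unadjusted p = 0.014, adjusted p = 0.60). Blocking on the slide gave 0.17 with SE 0.35 at 3 months, and within slide A the value was 0.21. The only CD 3 array on slide A was rat 1, the lowest of CD 3 at -0.58, so slide and rat cannot be told apart here. Within slide E the 14-month value was -0.35, and with the block the average over both times was -0.09 (limma, unadjusted p = 0.699).

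**Figure D2:**
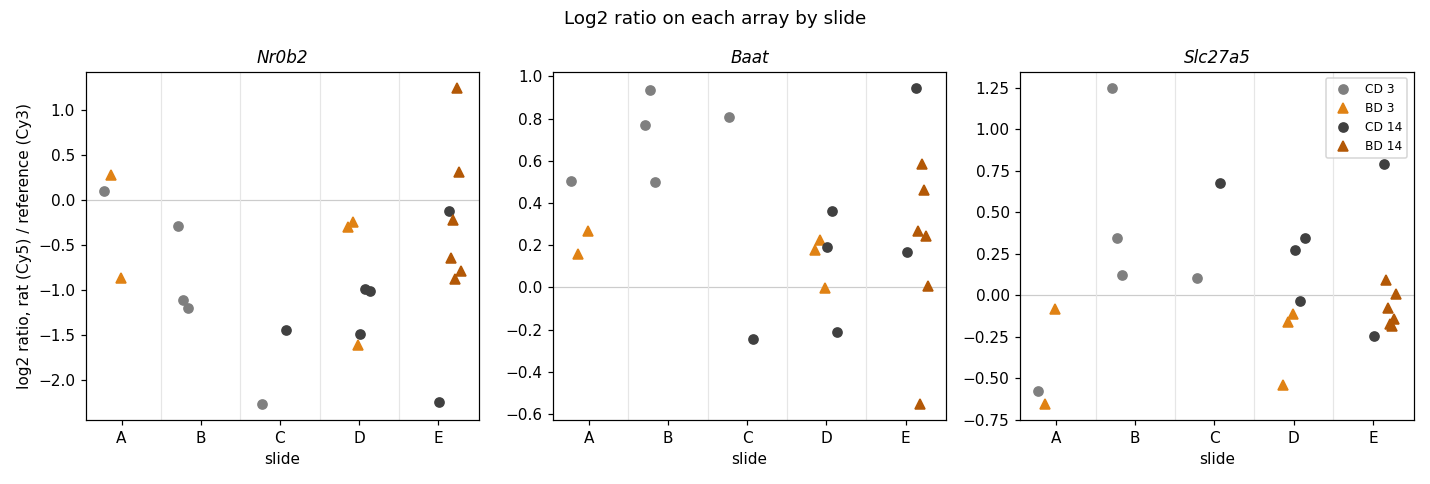
Log2 ratio of rat to reference on the y axis for Nr0b2, Baat and Slc27a5, with each array placed at its slide (A to E) on the x axis, circles for control diet and triangles for BASE-diet. On slide A the single CD 3 array lies above both BD 3 arrays for Baat and between them for Nr0b2 and Slc27a5.

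Slc10a1 (NTCP), the sodium-dependent transporter that takes bile acids back from portal blood, had log2 ratios of 0.57, 0.09, 0.17, -0.06 and 0.42 in CD 3. In BD 3 they were -0.77, -0.49, 0.17, -0.08 and -0.06. CD 3 was above the reference in 4 of 5 rats and BD 3 in 1 of 5, with overlap. The difference was -0.48 with SE 0.25 (limma, unadjusted p = 0.061, adjusted p = 0.73). Blocking on the slide gave -0.88 (limma, unadjusted p = 0.029), slide A alone -1.20, and the Cy5 signal alone -0.38 (limma, unadjusted p = 0.035). Averaged over both times Slc10a1 was at -0.30 (limma, unadjusted p = 0.081), and at -0.59 when blocked on the slide (limma, unadjusted p = 0.025). The 14-month means were -0.19 ± 0.43 for the control diet and -0.31 ± 0.40 for the BASE-diet (SD, n = 6 each), with a difference of -0.12 and SE 0.22 (limma, adjusted p = 0.96).

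Nr1h4 encodes FXR, the receptor that bile acids activate. Its main probe (chr7:26189988-26190047, 1 spot per array) had log2 ratios of 0.23, 0.11, 0.79, -0.04 and 0.55 in CD 3. In BD 3 they were -0.13, -0.31, -0.39, -0.02 and -0.67. All 5 BD 3 rats lay below the reference, and the groups overlapped only through CD 3 rat 4 and BD 3 rat 4. The difference was -0.63 with SE 0.43 (limma, unadjusted p = 0.153, adjusted p = 0.83), and the other probe gave -0.78 with SE 0.36 (limma, unadjusted p = 0.040, adjusted p = 0.68). For the main probe the unadjusted p by limma was 0.020 in a fit of both 3-month groups alone, 0.492 for a difference of -0.51 when blocked on the slide, and 0.204 with slide as a random block. At 14 months the difference was -0.13 with SE 0.39 (limma, adjusted p = 0.98), and BD 14 rat 2, at -2.70 by the main and -1.41 by the other probe, was the lowest rat by both probes. Without that rat the 14-month difference was 0.31.

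Nr0b2 encodes SHP, the corepressor that FXR induces and that holds down Cyp7a1 and Cyp8b1. Its probe (chr5:151524722-151524781) gave log2 ratios of 0.09, -0.28, -1.12, -1.20 and -2.27 in CD 3. In BD 3 they were 0.27, -0.86, -0.30, -0.24 and -1.61. Most rats lay below the reference on either diet. In CD 14 the lowest, median and highest values were -2.24, -1.23 and -0.12, and in BD 14 -0.88, -0.43 and 1.25. None of the 6 CD 14 rats and 2 of the 6 BD 14 rats were above the reference, and the groups overlapped. BD 14 minus CD 14 was 1.05 with SE 0.43, a 2.07-fold higher level (limma, 95% interval 0.16 to 1.95, unadjusted p = 0.023, adjusted p = 0.95). BD 3 minus CD 3 was 0.41 with SE 0.47 (limma, unadjusted p = 0.400, adjusted p = 0.91), it was 0.21 when blocked on the slide, and leaving out 1 array took it from 0.078 (without CD 3 rat 5) to 0.67. The average over both times was 0.73 with SE 0.32 (limma, unadjusted p = 0.033, adjusted p = 0.66). That average was 0.61 when blocked on the slide (limma, unadjusted p = 0.210) 0.69 with slide as a random block (limma, unadjusted p = 0.055) and 0.56 without CD 3 rat 5 (limma, unadjusted p = 0.080). The interaction term was 0.65 with SE 0.64 (limma, unadjusted p = 0.323). At 14 months the value was 1.02 with the slide as a block (limma, unadjusted p = 0.109), which is the difference within slide E and no separate check. It was 1.04 by the Cy5 signal alone, while the reference signal differed by -0.01. Leaving out each array in turn gave 0.77, without BD 14 rat 4 (limma, unadjusted p = 0.077), to 1.27. Within slide A the 3-month difference was -0.39.

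**Figure D3:**
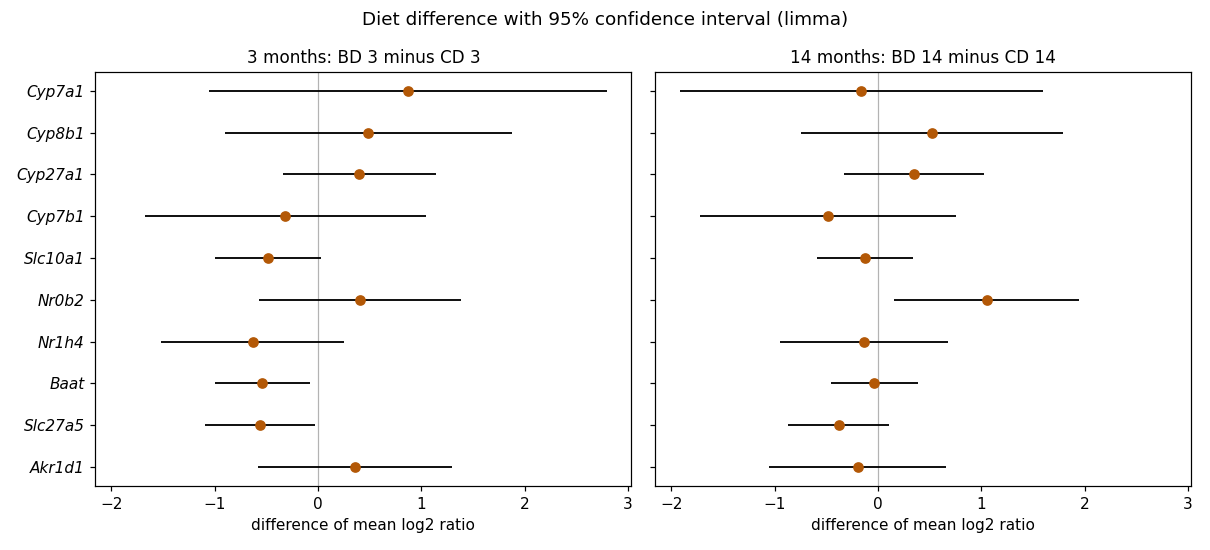
Difference of the mean log2 ratio, BASE-diet minus control, on the x axis at 3 months (left) and 14 months (right) for the 10 genes on the y axis, points for limma's estimate and lines for its 95% confidence interval. The interval excludes 0 for Baat and Slc27a5 at 3 months and for Nr0b2 at 14 months, before any adjustment for the number of probes.

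Across the 10 genes, 5 were higher and 5 lower in BD 3 than in CD 3, with a median difference of 0.02 against 0.03 over all probes. Between BD 14 and CD 14, 3 were higher and 7 lower, with a median of -0.13 against 0.05 over all probes. The 2 diet comparisons share no arrays.

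Between times, the lowest p among the main probes in the control rats was that of Baat, with a difference of -0.50 and SE 0.21 from CD 3 to CD 14 (limma, unadjusted p = 0.028, adjusted p = 0.42). The next was Slc10a1 at -0.42 with SE 0.23 (limma, unadjusted p = 0.087), which came to -1.05 in the fit blocked on slide (limma, unadjusted p = 0.014) and -0.43 by the Cy5 signal alone (limma, unadjusted p = 0.015). Nr1h4 at -0.65 with SE 0.41 and Akr1d1 at 0.64 with SE 0.43 were larger in size (limma, unadjusted p = 0.127 and 0.155), and the other Nr1h4 probe gave -0.72 (limma, unadjusted p = 0.048). Akr1d1 was 0.42 without CD 14 rat 2 (limma, unadjusted p = 0.345) and 0.95 without CD 3 rat 3 (limma, unadjusted p = 0.037). Without CD 14 rat 6 the Baat value was -0.41 (limma, unadjusted p = 0.072). Baat groups overlapped in CD 14 rat 5, at 0.95. This comparison and the 3-month diet comparison both use the CD 3 arrays, whose Baat values were the highest of the 4 groups in mean. Kupffer cell markers moved in the same comparison: 4 of 6 were higher in CD 14 at an unadjusted p under 0.05 by limma, 66.7% against 10.1% of all probes, with a median difference of 1.17. Their summed Cy5 signal lay between 2762 and 7968 in CD 3 and between 5639 and 35568 in CD 14, and their part in the Baat difference was not tested. The blocked Baat value was -0.70 (limma, unadjusted p = 0.066), so that the order of both genes by p turned, and within slide C it was -1.05. On the BASE-diet the differences over time lay between -1.13, for Cyp7a1, and 0.39, for Nr0b2, and the lowest unadjusted p was 0.215 by limma. Without BD 14 rat 2, whose Cyp7a1 signal was not well above background, the Cyp7a1 value was -0.25 (limma, unadjusted p = 0.71). The blocked Cyp7a1 value that follows includes that rat. BD 3 and BD 14 shared no slide, and with the slide as a block the range was -2.85, for Cyp7a1, to 1.44, for Akr1d1 (limma, unadjusted p = 0.052), while Cyp7b1 turned from 0.31 to -1.85. No gene had groups without overlap between BD 14 and CD 14, CD 14 and CD 3 or BD 14 and BD 3, as 0.767%, 0.515% and 2.26% of all probes had.

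The 48 other genes of bile acid synthesis, transport and regulation listed for this purpose gave 39 tested probes, and none passed the adjusted test in a diet comparison. At an unadjusted p under 0.05, 5 were higher and 1 lower in BD 3 than in CD 3, or 15.4% of the 39 against the 7.11% of all probes. Between BD 14 and CD 14 it was 1 higher and 1 lower, 5.13% of the 39 against 4.6% of all probes, and averaged over both times 7 higher and 2 lower, 23.1% against 7.19%. Their median differences were 0.13 at 3 months and 0.16 at 14 months.

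Among the synthesis enzymes, Acox2, the peroxisomal oxidase of the bile acid side chain, was higher in BD 3 by 1.19 with SE 0.44 (limma, unadjusted p = 0.013), by 0.88 without CD 3 rat 5 (limma, unadjusted p = 0.055) and by 1.47 when blocked on the slide (limma, unadjusted p = 0.031). It was -0.36 with SE 0.40 at 14 months. Akr1c14, a 3-alpha-hydroxysteroid dehydrogenase, differed by 1.01 with SE 0.39 between BD 3 and CD 3 (limma, unadjusted p = 0.017), by 0.52 without CD 3 rat 4 (limma, unadjusted p = 0.068) and by 0.23 when blocked on the slide. Hsd3b7, which acts after 7-alpha-hydroxylation, was 0.74 higher on the BASE-diet averaged over both times with SE 0.33 (limma, unadjusted p = 0.034), 0.53 without CD 3 rat 4 (limma, unadjusted p = 0.083) and 0.74 when blocked on the slide (limma, unadjusted p = 0.043). Both Acox2 and Akr1c14 had their lowest group mean in CD 3, at -1.57 and -0.98.

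Among transporters, Atp8b1, the canalicular flippase, differed by 1.42 with SE 0.54 between BD 3 and CD 3 (limma, unadjusted p = 0.016), by 0.90 without CD 3 rat 4 (limma, unadjusted p = 0.072) and by -0.059 when blocked on the slide. Slc51b, the beta subunit of the basolateral bile acid exporter, differed by -0.50 with SE 0.22 (limma, unadjusted p = 0.032), by -0.32 without CD 3 rat 1 (limma, unadjusted p = 0.121) and by -0.84 when blocked on the slide (limma, unadjusted p = 0.017). Abcc4, another basolateral exporter, was -0.40 averaged over both times with SE 0.19 (limma, unadjusted p = 0.049), and its unadjusted p was at least 0.05 in 14 of the 22 fits that each left out 1 array. Abcb11, the bile salt export pump and a classical FXR target, differed by 0.00 with SE 0.45 at 3 months and by 0.59 with SE 0.41 at 14 months (limma, unadjusted p = 1.00 and 0.16).

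Among regulators, Mafg, an FXR-induced repressor of Cyp8b1, differed by 0.93 with SE 0.37 between BD 3 and CD 3 (limma, unadjusted p = 0.020), by 0.59 without CD 3 rat 4 (limma, unadjusted p = 0.087) and by 0.42 when blocked on the slide. Averaged over both times it was 0.71 with SE 0.25 (limma, unadjusted p = 0.009), and 0.63 when blocked on the slide (limma, unadjusted p = 0.122). Hnf4a, the hepatocyte factor that drives Cyp7a1 and Cyp8b1, was higher in BD 14 by 0.77 with SE 0.29 (limma, unadjusted p = 0.014), 0.37 when blocked on the slide (limma, unadjusted p = 0.374), and is the 1 hepatocyte marker counted above. Nr1i3, the receptor CAR, was 0.82 higher averaged over both times with SE 0.34 (limma, unadjusted p = 0.024), 0.69 without CD 3 rat 2 (limma, unadjusted p = 0.055) and 1.15 when blocked on the slide (limma, unadjusted p = 0.048). Cyp51, an enzyme of cholesterol synthesis, differed by -0.91 with SE 0.39 between BD 14 and CD 14 (limma, unadjusted p = 0.029), and by -0.71 when blocked on the slide (limma, unadjusted p = 0.201).

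The differences between rats of 1 group were compared between genes as deviations from the group means over the 22 arrays. Of 45 pairs none passed a within-group permutation test after adjustment over the pairs. The lowest Pearson r was -0.62, between Cyp27a1 and Cyp7b1 (permutation p = 0.024, adjusted p = 0.36; Spearman rho -0.47, permutation p = 0.057, adjusted p = 0.77), and it was -0.39 without the 2 arrays furthest from the median of Cyp27a1. The highest was 0.60, between Cyp8b1 and Cyp27a1 (permutation p = 0.053, adjusted p = 0.42; rho 0.44, permutation p = 0.091, adjusted p = 0.77), and it was 0.06 without the 2 arrays furthest for Cyp8b1. The relation of Cyp8b1 and Cyp27a1 thus rests on those arrays. Cyp7a1 and Cyp8b1 had r = 0.44 (permutation p = 0.022, adjusted p = 0.36; rho 0.34, permutation p = 0.144, adjusted p = 0.80) and 0.39 without the 2 arrays furthest from the median of Cyp7a1.

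Among 12311 genes detected on all arrays, the log2 ratios most like those of Cyp7a1 over the 22 arrays were those of Tmem19 (Pearson r 0.81, Spearman rho 0.72), Ppp1r3c (r 0.77, rho 0.49) and Fam46a (r 0.77, rho 0.67), with BD 14 rat 2 included, where Cyp7a1 was not well above background. For Cyp8b1 they were Pxmp4 (r 0.89, rho 0.88), Pck1 (r 0.86, rho 0.78) and Phyh (r 0.85, rho 0.78). All share the reference channel and the arrays' quality with the gene they resemble, and these r are descriptions.

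The reference, although 1 RNA pool, did not give 1 signal. Over the 22 arrays the SD of the quantile-normalized log2 Cy3 signal was 1.02 for Cyp7a1 and 0.91 for Cyp8b1, against 1.53 and 1.07 in Cy5. For Baat it was 0.15 against 0.32, for Slc10a1 0.28 against 0.30, and for the median probe 0.46 against 0.56. Its part in the results was not tested. In the reference signal, limma's unadjusted p was under 0.05 for 0 of the 10 genes in either diet comparison, against 14.8% of all probes at 3 months and 13.2% at 14 months. It was under 0.05 for Cyp7b1 between BD 14 and BD 3, at 0.70 (unadjusted p = 0.038), and for the interaction of Cyp8b1, at -1.66 (unadjusted p = 0.027), and of Cyp7b1, at 1.00 (unadjusted p = 0.036), all by limma. In that channel 18.1% of all probes reached this level between BD 14 and BD 3 and 23.2% for the interaction.

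**Figure D4:**
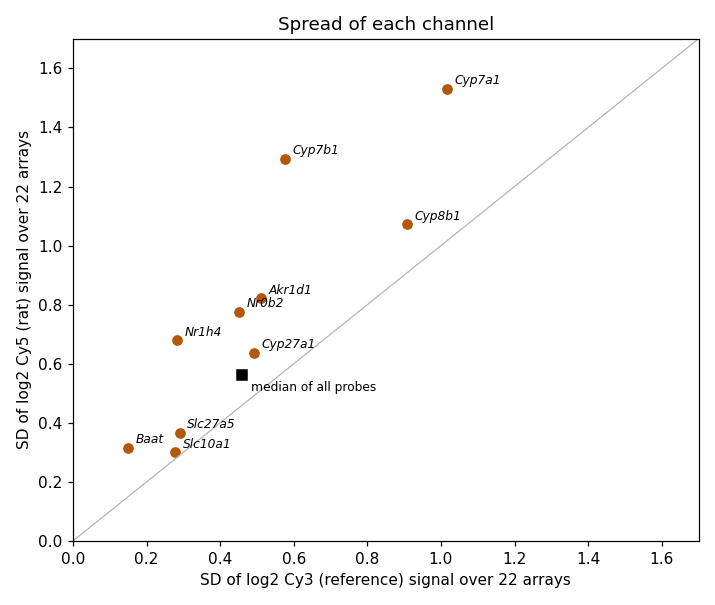
SD over 22 arrays of the log2 reference (Cy3) signal on the x axis and the log2 rat (Cy5) signal on the y axis, each quantile-normalized, for the 10 genes (circles) and the median of all tested probes (square), with the line of equal SD. All 10 genes lie above the line, Slc10a1 and Cyp8b1 closest to it in proportion.

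Markers of other cells gave few differences between diets. At an unadjusted p under 0.05 by limma, 0 of 4 bile duct, 0 of 6 Kupffer cell, 0 of 4 sinusoidal endothelium, 0 of 3 lymphocyte, 0 of 1 pancreas and 0 of 12 clock genes differed at either time. Of 6 stellate cell markers 1 was higher in BD 3, of 3 red cell markers 1 was lower in BD 3, of 7 periportal genes 1 was higher in BD 3, and of 6 pericentral genes 1 was lower in BD 14, where 7.11% of all probes reached this level at 3 months and 4.6% at 14 months. The median difference of the Kupffer cell markers was 0.63 at 3 months and -0.21 at 14 months, with the summed Cy5 signal between 2762 and 7968 in CD 3 and between 5870 and 8948 in BD 3. That of the red cell markers was -0.67 at 3 months and -0.35 at 14 months, with sums between 87612 and 255145 in CD 3 and between 76818 and 198565 in BD 3. The periportal median was 0.66 at 3 months. The part of these genes in the results above was not tested.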

How the data were processed

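The 22 arrays were Agilent SurePrint G3 rat arrays. The authors subtracted background and normalized the dyes by Lowess with Agilent Feature Extraction (version 10.7.3.1 in the methods and the submitters' processing notes), and deposited 1 file per array. Per the file headers, each spot has a log10 value, processed Cy5 over processed Cy3, and the processed intensity values are in the scanner's arbitrary units. The methods text names Cy3 for control rats and Cy5 for BASE-diet rats. The labels give Cy5 for every rat and Cy3 for the common reference, and the labels were followed. The paper's 2 arrays rejected for quality (1 of each 3-month group) were not analysed here. A deposited table of entries the authors found significant was not used, and none of the 11 probes is in it.

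The log10 ratios were converted to log2, non-uniform spots were left out and spots of 1 probe averaged. Testing required Cy5 well above background for a share of 0.5 or more of a probe's spots on all arrays of some group. This kept 19434 probes, and 698 of them lacked a value somewhere. Groups were compared with limma 3.58.1 (R 4.3.3) in 1 fit of the 4 group means, with Benjamini-Hochberg adjustment over the tested probes and a threshold of 0.05. The methods used a one-way F test with Tukey's HSD, which was run as an alternative. Rats were separate animals. On simulated data for BD 3 against CD 3 (18736 probes, 200 of them changed), the test recovered 35% of changes of 1 and 81% of changes of 2 on the log2 scale at the adjusted threshold, and 9.38% of its calls were false. The number of arrays limits the precision. Correlations used 100000 within-group permutations.

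The 10 genes and the lists were chosen with earlier results of these data known, so that no list is independent evidence. All 10 genes were described, and of the 48 others those with an unadjusted p under 0.05 in a diet contrast were named, apart from 1 that is not reported here, with Abcb11 added after its values were seen. Of the 48, 47 were matched to the array, 3 of them by an older name. Marker lists covered hepatocyte, bile duct, Kupffer cell, sinusoidal endothelium, stellate cell, lymphocyte, pancreas, red cell, pericentral, periportal and clock genes. For the named genes among the 48, leaving out arrays and the slide block were added after seeing the data. Alternatives changed the channel, background correction, scaling, filters, array weights, slide, replicate block, groups in the fit, probe and arrays. The array files give module numbers that differ from the version in the methods, and probes are annotated to rn4.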

Additional observations from a re-analysis of the deposited data

Results flagged for a closer look

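Nr1h4 in BD 14 rat 2, at a log2 ratio of -2.70, lay far below the other 5 rats of its group by Dixon's test. It was the only value of the 10 genes to do so in the 40 groups of arrays examined, and chance alone marks about 1 group in 20. The main probe has 1 spot, and the other Nr1h4 probe, averaged over 2 spots, also had its lowest BD 14 value in that rat, at -1.41. The same rat had the lowest value of its group for 5 of the 10 genes, among them Cyp7a1 at -3.64.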

How the results depend on the processing

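No gene passed the adjusted test under any of 35 alternative settings, where the lowest adjusted p was 0.13. Of 23 differences followed, 11 kept their direction in every alternative run, among them Baat and Slc10a1 at 3 months, Nr0b2 and Slc27a5 at 14 months and averaged over both times. Turned values at 3 months were, with the slide as a block, Cyp7b1 0.78, Slc27a5 0.17 and Akr1d1 -0.52 (and, of the other named genes, Atp8b1 -0.059), and within slide A Cyp7b1 1.28, Nr0b2 -0.39, Slc27a5 0.21 and Akr1d1 -0.60. At 14 months the block, there equal to slide E by construction, gave Cyp8b1 -0.019, Nr1h4 0.12 and Akr1d1 0.60, and the random block Akr1d1 0.056. Array weights gave Cyp7b1 0.015 at 3 months and Cyp7a1 0.70, Nr1h4 0.12 and Baat 0.095 at 14 months. At 14 months Cy5 alone gave Cyp7a1 0.025, Cyp8b1 -0.21 and Cyp27a1 -0.11, normexp with loess Cyp7a1 0.063, and the fit without both arrays of most non-uniform spots Nr1h4 0.0070. The cause was not tested.

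Leaving out each of 22 arrays in turn gave, at 3 months, -0.11 to 1.05 for Cyp8b1, -0.018 to 0.71 for Cyp27a1 and -0.69 to 0.33 for Cyp7b1. At 14 months it gave -0.55 to 0.72 for Cyp7a1, -0.34 to 0.31 for Nr1h4, -0.12 to 0.11 for Baat and -0.38 to 0.027 for Akr1d1. The counts of genes at an unadjusted p under 0.05 ranged from 0 to 3 (BD 3 against CD 3), 0 to 1 (BD 14 against CD 14), 1 to 4 (diet averaged), 0 to 2 (CD 14 against CD 3, any difference, interaction) and 0 to 1 (time averaged). BD 3 against CD 3 gave 0 without CD 3 rat 3 (5.73% of all probes). BD 14 against CD 14 gave 0 without CD 14 rat 4 (5.25%) or BD 14 rat 4 (3.95%), and the diet average gave 4 without CD 14 rat 3 (8.16%).

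For any difference among the groups the count was 2 by Cy5 alone, normexp with loess, median centring or array weights. It was 1 without both non-uniform arrays (12.9% of all probes) or by the methods' F test. All probes at that level made up 19.6% by Cy5 alone, 10.5% by normexp with loess, 10.1% by median centring and 10.2% by array weights, and between 2.58% and 19.6% over all 35 settings and comparisons. That test with Tukey's HSD gave 0 in BD 3 against CD 3, BD 14 against CD 14 and CD 14 against CD 3. The slide as a block (11% of all probes) or random block (4.46%) gave 1 in BD 3 against CD 3, and the random block 1 in the diet average (6.08%). The slide block also exchanged genes: Slc10a1 and Baat for Slc27a5 and Nr0b2 in the diet average, Slc10a1 for Baat and Slc27a5 in BD 3 against CD 3 and for Baat in CD 14 against CD 3, and Cyp7b1 for Nr0b2 in BD 14 against CD 14. CD 14 against CD 3 gave 2 by Cy5 alone (11.1% of all probes) or the other Nr1h4 probe (10.1%) and 0 with only both groups compared (6.32%). Time averaged gave 2 by Cy5 alone (15.4% of all probes) and 1 with the slide block (3.02%), and the interaction 1 with array weights (6.97%). The replicate block gave 1 in the diet average (7.35% of all probes) and 0 in CD 14 against CD 3 (9.29%). Nr0b2 was at an unadjusted p of 0.052 by limma in the former. Rat numbers did not pair the arrays: 31 same-numbered pairs had correlations of -0.26 to 0.29, 6 of them over 0.1. Cyp7a1 is not tested under the strict filter, and the deposited significant entries hold none of the genes, so that alternative was not run. Cyp7a1, near background in places, is measured with the least certainty.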
